A study of Homo sapiens with 3 samples.

Results

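The cells described here are barcodes that carry RNA of the mitotic machinery within cultures of stem-cell-derived alpha cells. A barcode was kept with at least 1000 detected genes and at most 20% of its unique molecular identifiers (UMIs, which tag single captured RNA molecules) from mitochondrial genes. The cells were chosen by measured UMIs: a barcode was called cycling when at least 3 of 8 genes were detected, MKI67, TOP2A, CENPF, NUSAP1, BIRC5, UBE2C, CDK1 and TPX2, and when COL1A1, COL1A2 and COL3A1 together gave fewer than 10 UMIs. The rule found 62 cycling cells among 3653 kept barcodes, or among 3535 under the collagen limit. The 3 libraries, replicates 1, 2 and 3 of the group SC-A, held 21, 14 and 27 of them. All 3 came from HUES8 cells, an established line of human embryonic stem cells, directed in culture towards alpha cells, the glucagon-secreting cells of the pancreatic islet, and profiled as 10x Genomics single-cell 3′ libraries. All 3 libraries are of 1 group and 1 cell line, so every comparison here lies between cells of the same library. The labels do not say whether the replicates were separate differentiations, so the spread between them may be technical.

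During the cell cycle, genes for DNA replication are transcribed around the G1/S boundary and genes for spindle, cytokinesis and chromosome condensation rise in G2 and mitosis. Differentiated islet endocrine cells rarely divide, because cyclin-dependent kinase inhibitors hold them outside the cycle, while progenitors and neural stem-like cells divide readily. A cycling cell keeps transcripts of its lineage, so lineage genes outside the rule can be read in it. Lists of 9 genes each were used for that. The endocrine list included NEUROD1, INSM1, ISL1, PAX6, RFX6, NKX2-2 and FEV, transcription factors of islet and related endocrine cells. The neural or glial list included FABP7, SOX2, PTPRZ1, TTYH1, MSI1, SOX10, ERBB3 and S100B. The pancreatic progenitor list included PDX1, NKX6-1, SOX9, ONECUT1, GATA4, GATA6 and PTF1A. A cell was put in a class when at least 3 of the 9 genes were detected and more than of either other list, so a class is a range of marker counts and not a cell type.

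The deposited matrices held 9683 barcodes and between 30139788 and 31122791 UMIs per library. Another 3986 barcodes fell under the gene minimum and 2044 over the mitochondrial limit. Median UMIs of cycling cells were 16964, 24242.5 and 13735 in replicates 1, 2 and 3, against 15242, 20721 and 9934 in the other cells under the collagen limit. Their median mitochondrial share was 7.66, 7.87 and 9.36%, against 14.9, 14.5 and 15.0%. Both differences had 1 sign in all 3 libraries, with a two-sided exact sign-flip permutation p of 0.25, the smallest that 3 pairs allow. The libraries shared 1, 4 and 2 barcode sequences pairwise, and no shared barcode was cycling in either library. Scrublet, which scores barcodes that look like 2 cells, called 47 barcodes and 0 of the cycling cells.

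The promoters of the rule genes were examined for letters that these genes share. A pair of short motifs of cell cycle promoters were searched on both strands in the 200 bases before each RefSeq start (GRCh38.p14): the cell cycle genes homology region, TTTGAA, and the CCAAT box, CCAAT. This search and the promoters printed here were chosen after the data had been seen. Of 8 rule genes 5 had an entry, and TTTGAA lay in 3 of them and CCAAT in 5. Among G2/M genes outside the rule TTTGAA lay in 11 of 18 promoters, among G1/S genes in 0 of 17, and among all 27305 promoters in 10.5%. CCAAT lay in 15 of 18, 12 of 17 and 28.9% of them. The 3 promoters printed here are shown because MKI67 and CDK1 hold both motifs and CENPF holds CCAAT without TTTGAA, with matches on either strand in capitals. MKI67, the gene of the proliferation antigen Ki-67, is on the reverse strand and its window is chr10:128126424-128126623. CDK1, the kinase that drives mitotic entry, is on the forward strand with the window chr10:60778131-60778330. CENPF, a kinetochore protein of G2 and mitosis, is on the forward strand with the window chr1:214602995-214603194.
MKI67: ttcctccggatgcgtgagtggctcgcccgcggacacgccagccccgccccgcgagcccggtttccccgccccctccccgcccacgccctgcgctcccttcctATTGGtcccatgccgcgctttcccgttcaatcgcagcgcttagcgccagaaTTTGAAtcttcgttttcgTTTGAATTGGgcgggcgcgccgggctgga
CDK1: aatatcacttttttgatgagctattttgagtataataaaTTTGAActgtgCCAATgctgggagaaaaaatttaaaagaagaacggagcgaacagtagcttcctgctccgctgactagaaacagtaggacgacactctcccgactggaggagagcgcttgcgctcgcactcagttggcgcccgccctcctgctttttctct
CENPF: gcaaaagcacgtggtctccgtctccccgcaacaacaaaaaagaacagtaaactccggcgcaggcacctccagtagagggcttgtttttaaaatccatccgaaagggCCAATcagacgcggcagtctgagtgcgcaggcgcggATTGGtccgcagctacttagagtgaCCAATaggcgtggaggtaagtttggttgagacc
In the MKI67 promoter 1 of 2 TTTGAA matches runs into a CCAAT match on the other strand, and CDK1 has 1 match of each. CENPF has 3 CCAAT matches and no TTTGAA in this window. A match describes letters and is not a measured site.

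The rule genes were the values that chose the cells, so their levels are given without a test. Levels are UMI counts scaled to the same total (CPM, each gene's UMIs per 1000000 UMIs) in the summed cells of a library. TOP2A, the topoisomerase that untangles replicated chromosomes, stood at 761, 445 and 556 CPM in cycling cells of replicates 1, 2 and 3. MKI67 stood at 355, 393 and 351 CPM, and CENPF at 948, 700 and 554 CPM. In the other cells all 8 rule genes lay near 0, with TOP2A at 0.385, 0.097 and 0.434 CPM. Of the 62 cells 28 carried all 8 rule genes and 12 carried 3. The 12 cells just inside the limit had a median of 13951 UMIs and pooled levels of 2227 CPM over the G1/S list and 249 CPM over the G2/M list outside the rule. The 17 eligible barcodes just outside, with 2 rule genes, had a median of 11082 UMIs, 579 CPM over the G1/S list and 168 CPM over the G2/M list. The cells at the lower limit carried more G1/S than G2/M RNA.

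Cycling cells differed in which part of the cycle programme they carried. More UMIs fell on the 20 G2/M genes than on the 20 G1/S genes in 29 of 62 cells, in 10 of 21, 6 of 14 and 13 of 27 by library. By lineage the count was 7 of 17 endocrine-class cells and 15 of 35 neural-class cells. The 2 lists hold different genes and are not a phase call. G2/M UMIs per cell ran from 1 to 234 in replicate 1, from 3 to 262 in replicate 2 and from 1 to 177 in replicate 3. HIST1H4C, a replication-coupled histone gene, was at 1592, 1742 and 2968 CPM in endocrine-class cycling cells and at 127, 191 and 152 CPM in the other endocrine-class cells. In replicates 1 and 3, 1 cell held 88.5 and 91.4% of these cycling UMIs.

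**Figure D1:**
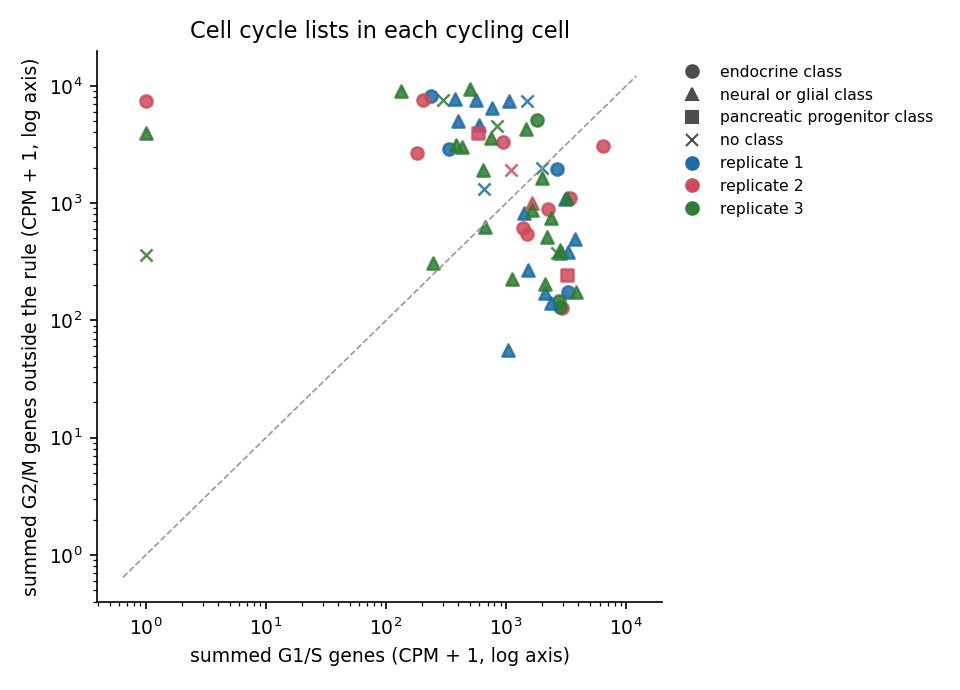
Summed G1/S genes (x) and summed G2/M genes outside the rule (y) in each of the 62 cycling cells, as CPM + 1 on log axes; shapes mark the lineage class, colours the replicate, and the dashed line equal levels. In 29 of 62 cells the G2/M sum is the higher of the 2, and both endocrine-class and neural-class cells lie on either side of the line.

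The cycling cells were mostly of neural or glial and endocrine class, and the mix differed between libraries. By class 35 were neural or glial, 17 endocrine, 2 pancreatic progenitor and 8 in no class, while the other cells under the collagen limit were 54, 3251, 6 and 162. Neural-class cells were 14 of 21 in replicate 1 (66.7%, exact Clopper-Pearson 95% interval 43.0 to 85.4%), 1 of 14 in replicate 2 (7.14%, 0.181 to 33.9%) and 20 of 27 in replicate 3 (74.1%, 53.7 to 88.9%). Endocrine-class cells were 19.0, 71.4 and 11.1% of the cycling cells in the same order. Replicates 1 and 3 thus gave mainly neural-class cycling cells and replicate 2 mainly endocrine-class ones. Among other cells the neural class made up 1.15, 0.0998 and 2.98%, so the mean share was 49.3 ± 36.7% of cycling cells and 1.41 ± 1.46% of other cells (SD, n = 3, exact sign-flip permutation p = 0.25, higher in 3 of 3 libraries). The endocrine class made up 33.9 ± 32.8% of cycling and 93.8 ± 2.09% of other cells (SD, n = 3, exact p = 0.25, lower in 3 of 3). These intervals cover counting error only.

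**Figure D2:**
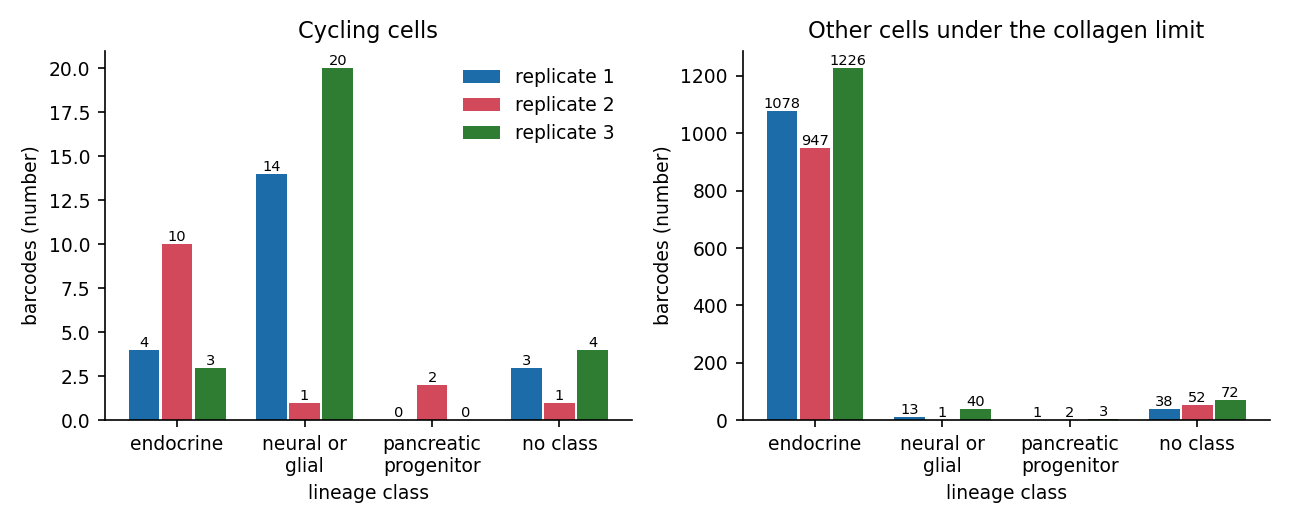
Number of barcodes in each lineage class (x) among cycling cells (left) and among other cells under the collagen limit (right), with bars for replicates 1, 2 and 3 and separate linear y axes that start at 0. Neural or glial class bars are highest among cycling cells of replicates 1 and 3 (14 and 20), and the endocrine bar is highest in replicate 2 (10).

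Seen from the classes, a larger share of neural-class than of endocrine-class barcodes was cycling. Of neural-class barcodes 14 of 27, 1 of 2 and 20 of 60 were cycling, or 51.9, 50 and 33.3%. Of endocrine-class barcodes 0.370% (exact 95% interval 0.101 to 0.944%), 1.04% (0.502 to 1.91%) and 0.244% (0.0504 to 0.712%) were cycling. The mean shares were 45.1 ± 10.2% and 0.553 ± 0.431% (SD, n = 3), a difference of 44.5 percentage points with an exact sign-flip permutation p of 0.25, higher in 3 of 3 libraries. The middle value rests on 2 neural-class barcodes. After each barcode was thinned to 5000 UMIs, which left 1032, 878 and 1261 barcodes, the neural-class share was 31.8, 0 and 27.6% and the endocrine-class share 0.214, 0.492 and 0.187%. In thinned replicate 2 the neural class held 4 barcodes and none was cycling, so the order of the 2 classes was kept in 2 of 3 libraries. The pancreatic progenitor class held 1, 4 and 3 barcodes, of which 0, 2 and 0 were cycling, too few for a share to be read.

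The 2 main classes stood apart in single cells. Of 17 endocrine-class cycling cells 1 had a FABP7 UMI (at 34.3 CPM), and SOX2, PTPRZ1 and TTYH1 were at 0 UMIs in the sums of every library, which allows up to 54.9, 14.0 and 63.6 CPM when 3 UMIs per library are taken as the limit. SOX2 is a transcription factor of neural and other stem cells, FABP7 a fatty acid carrier of radial glia, and TTYH1 a membrane protein of neural stem cells. In the 35 neural-class cycling cells EPCAM, the epithelial adhesion gene, was at 0 UMIs, which allows up to 9.51, 81.0 and 9.74 CPM by library. Endocrine-class cycling cells had EPCAM at 384, 407 and 445 CPM in replicates 1, 2 and 3, beside 343, 346 and 379 CPM in other endocrine-class cells. Since the class rule used SOX2, FABP7, PTPRZ1 and TTYH1, their separation is a description, whereas EPCAM was not used. Some list genes were shared or poorly placed. PAX6, a factor of both islet and neural development, stood at 120, 0 and 94.1 CPM in neural-class cycling cells, and ERBB3, on the neural list, was higher in other endocrine-class cells (166, 195 and 124 CPM) than in neural-class cycling cells (3.17, 0 and 6.49 CPM).

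**Figure D3:**
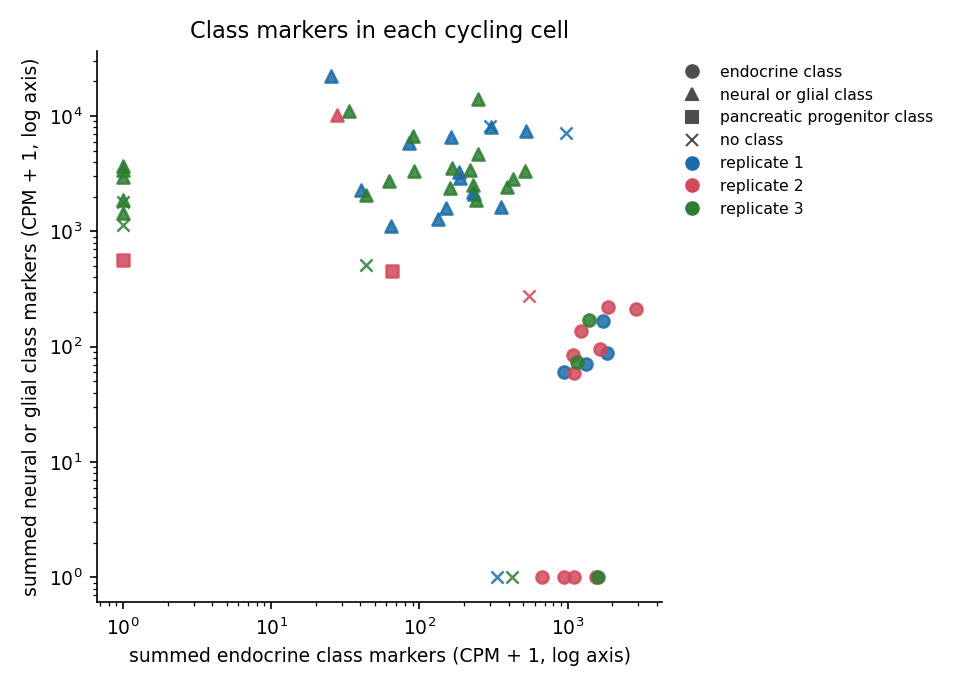
Summed endocrine class markers (x) and summed neural or glial class markers (y) in each of the 62 cycling cells, as CPM + 1 on log axes, with shapes for class and colours for replicate. The 35 neural-class cells lie at upper left and the 17 endocrine-class cells at lower right; the class rule used these genes, and 1 cell of no class in replicate 1 carries both sums at 981 and 7194 CPM.

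Endocrine-class cycling cells carried several alpha-cell genes, GCG among them, at lower summed levels. GCG, the glucagon gene (ENSG00000115263, chr2:162142873-162152404 on the reverse strand of GRCh38), stood at 47913, 98688 and 15712 CPM in the 4, 10 and 3 cycling cells and at 132632, 149403 and 104248 CPM in the 1078, 947 and 1226 other endocrine-class cells. Cycling sums were lower in each library and the groups did not overlap. The planned minimum of 5 cells per sum was not met in replicates 1 and 3, so this comparison was planned to give values only. A fit with at least 3 cells per sum was added after the cell counts had been seen. In that fit (edgeR's quasi-likelihood test with Benjamini-Hochberg adjustment, library as block) GCG was lower by a log2 change of -2.10 ± 0.29 (SE, adjusted p = 2.00e-11). Without replicate 3 the change was -1.52 with an adjusted p of 0.788, so the call rests on that library. The fit called 717 of 13192 genes, 5.44% (3.36% higher and 2.08% lower in cycling cells). Its scaling to composition (TMM) put the median of all genes at -0.27, which is 0.48 below that on plain CPM. Median mitochondrial shares were 12.5, 10.7 and 18.7% in endocrine-class cycling cells and 15.1, 14.8 and 15.3% in the others, and their part in the differences was not tested.

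Glucagon RNA varied widely among single endocrine-class cycling cells. It ran from 37363 to 68273 CPM in the 4 cells of replicate 1, from 1377 to 143889 CPM in the 10 of replicate 2, and from 951 to 45067 CPM in the 3 of replicate 3. Some cycling cells thus held GCG near the summed level of the other cells and some far less. The spread among single other endocrine-class cells was not measured, so this range is not shown to be particular to cycling cells. In the 3 cells of replicate 3 GCG was 951, 6748 and 45067 CPM, and CHGA, the granule protein chromogranin A, was 20653, 7647 and 7863 CPM. The first of these cells also carried the enterochromaffin genes TPH1, DDC, GCH1 and SLC18A1 at 112, 728, 168 and 56.0 CPM, with LMX1A, ADRA2A and MNX1 at 0. A cell of replicate 2 had GCG at 1377 CPM, INS, the insulin gene, at 8366 CPM and NEUROD1 at 1430 CPM. The lowest of these GCG values lies near the 907, 513 and 604 CPM of the summed neural-class cycling cells. Of the 10 endocrine-class cycling cells of replicate 2, 3 had just 3 endocrine markers. These single cells were chosen for description after their values were seen.

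Factors that set the class are given as levels without a test. ISL1, a factor shared by islet endocrine cells, was at 110, 187 and 170 CPM in cycling cells and at 246, 244 and 218 CPM in other endocrine-class cells. NEUROD1, a factor of endocrine differentiation, was at 146, 445 and 233 CPM against 260, 262 and 252 CPM. ISL1 values of the 2 groups did not overlap, whereas NEUROD1 values did.

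Of 6 tested hormone genes 4 were lower in endocrine-class cycling cells and 0 were higher. SST, the somatostatin gene, was at 823, 773 and 763 CPM against 1654, 3794 and 1542 CPM (log2 change -2.01 ± 0.23, adjusted p = 5.66e-16 in edgeR). IAPP, amylin, had 1 UMI in all 17 cycling cells together and was at 63.0, 60.0 and 44.2 CPM in other cells, a log2 change of -4.59 ± 0.84. Of the other cells only 61 of 1078, 66 of 947 and 30 of 1226 had an IAPP UMI, and 1 cell per library held 43.9, 76.7 and 81.3% of its UMIs, so the change rests on few cells. In SST it was the cycling sums that came mostly from 1 cell per library (88.9, 70.9 and 69.4% of UMIs). INS was at 0, 2014 and 721 CPM against 2017, 2906 and 682 CPM, lower in 2 of 3 libraries. The fitted change of INS was -1.64 ± 0.24. Without replicate 1 it was -0.69 with an adjusted edgeR p of 0.166, and DESeq2 gave an adjusted p of 0.903. GHRL and NTS did not pass the test. The list median was -1.83, against -0.27 over all genes tested.

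Of 14 granule and prohormone processing genes 6 were lower, 0 higher and 8 did not pass, with a list median of -0.49. On plain CPM means 6 of the 14 were higher and 8 lower. SCG5, the chaperone of prohormone convertase 2, was at 256, 379 and 297 CPM against 558, 543 and 554 CPM (log2 change -1.24 ± 0.24, adjusted p = 1.98e-05 in edgeR). SLC30A8, the granule zinc carrier, was at 0, 51.5 and 21.2 CPM against 60.9, 83.5 and 64.4 CPM, on 12 UMIs in cycling cells. CHGB and PTPRN also passed, PTPRN at -0.85, but the calls of SLC30A8, CHGB and PTPRN were lost without replicate 1 and without replicate 3 (adjusted edgeR p between 0.0831 and 0.26). CHGA, named after its values were seen, was at 4702, 8991 and 12637 CPM against 12124, 13104 and 6197 CPM, so it was higher in replicate 3 although the fit called it lower at -0.80, and leaving out any 1 replicate ended that call (adjusted edgeR p between 0.0807 and 0.876). Among 11 tested alpha-cell genes 6 were lower and 0 higher. TTR, transthyretin, which is abundant in alpha cells, was at 36278, 53287 and 34434 CPM against 71881, 71080 and 68831 CPM, a log2 change of -1.31 ± 0.26. Without replicate 3 TTR gave -1.19 with an adjusted edgeR p of 0.801. DPP4, a peptidase of the alpha-cell surface, was at 201, 112 and 233 CPM against 482, 289 and 499 CPM (-1.74 ± 0.27), and GC, the vitamin D binding protein, changed by -1.28 ± 0.23. SST, SCG5, DPP4 and GC kept their calls under all 16 alternatives run, and so did IAPP, though none of these leaves out the few cells that hold its UMIs. TM4SF4 passed at -1.53 on 11 UMIs, was higher than in other cells in replicate 3, and lost its call without replicate 1 or 2 (adjusted edgeR p of 0.432 and 0.472).

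**Figure D4:**
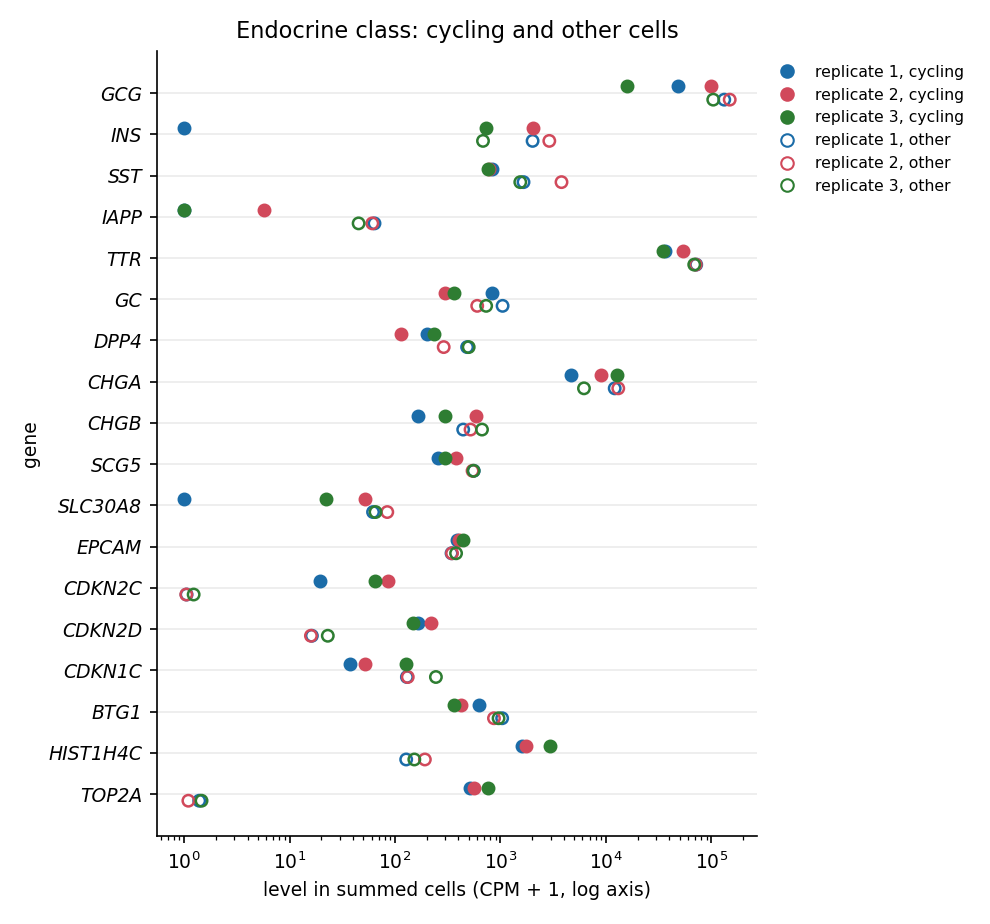
Levels of 18 genes (y) in the summed endocrine-class cells of each replicate, as CPM + 1 on a log x axis; filled points are cycling cells and open points other cells, coloured by replicate. GCG, SST and TTR lie lower in cycling cells of all 3 replicates, EPCAM lies slightly higher, and CDKN2C and CDKN2D lie higher; TOP2A is a gene of the rule.

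Genes that restrain the cycle moved both ways in endocrine-class cycling cells. The cells were chosen by cell cycle genes, and the part of that choice in the changes given here was not tested. Of 15 tested cyclin-dependent kinase inhibitors and cell cycle exit genes 2 were higher and 4 lower. CDKN2C, the inhibitor p18INK4C of CDK4 and CDK6 (chr1:50960745-50974633, forward strand), was at 18.3, 84.3 and 63.6 CPM in cycling cells and at 0.056, 0.0492 and 0.232 CPM in other cells. Its log2 change was 8.66 ± 0.75 (adjusted p = 1.08e-28 in edgeR) on 22 and 5 UMIs, and in replicates 1 and 3 all of its cycling UMIs came from 1 cell each. CDKN2D, the related p19INK4D (chr19:10566462-10569059, reverse strand), was at 165, 220 and 148 CPM against 15.3, 15.0 and 22.1 CPM, a log2 change of 3.09 ± 0.32, with all of its UMIs in replicate 3 from 1 cell. CDKN1C, the inhibitor p57, was at 36.6, 51.5 and 127 CPM against 129, 131 and 243 CPM (-1.74 ± 0.35), and GADD45G was lower at -1.94 ± 0.47, a call lost without replicate 3 (adjusted edgeR p of 0.127). BTG1 and BTG2, antiproliferative genes, were the other lower members, at -1.52 and -1.38, both named after their values were seen. BTG2 lost its call without replicate 3 (adjusted edgeR p of 0.0933). CDKN2D, CDKN1C and BTG1 kept their calls under all alternatives run, and CDKN2C under those in which it was tested. In replicate 2, 1 cell held 66.7% of the 18 cycling UMIs of CDKN2C. Replicates 1 and 3 held 1 and 3 in cycling cells and 1 and 3 in other cells. Few are thus left to test CDKN2C without replicate 2. Among the G1 cyclins and kinases CCND3 was higher, at 54.9, 51.5 and 63.6 CPM against 14.7, 12.5 and 17.2 CPM (1.55 ± 0.50), on 17 UMIs, and leaving out any 1 replicate ended the call (adjusted edgeR p between 0.135 and 0.884).

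Other lists gave few changes in the endocrine class. Of 8 tested hepatic genes 5 were lower, and 3 with DESeq2's size factors in edgeR. SERPINA1, antitrypsin, was at 2506, 2604 and 1145 CPM against 3337, 3488 and 2687 CPM (-1.15 ± 0.22), and without replicate 3 its adjusted edgeR p was 0.292. APOC3 was at 0, 244 and 84.8 CPM against 357, 408 and 241 CPM (-1.77 ± 0.29). ALB had 0 UMIs in the 17 cycling cells, but only 39 of 1078, 28 of 947 and 26 of 1226 other cells had any, and leaving out any 1 replicate ended its call (adjusted edgeR p between 0.0876 and 0.18). STMN2, a microtubule regulator of neurons that endocrine cells also express, was the 1 of 8 tested neuronal genes that passed, at -1.69 ± 0.31. TPH1, the enzyme of serotonin synthesis, was the 1 of 5 tested enterochromaffin genes that passed (-2.86 ± 0.78), a call lost without replicate 1 or 2 (adjusted edgeR p of 0.102 and 0.0825). It had 2 UMIs in cycling cells, both in 1 cell of replicate 3. Only 78 of 1078, 51 of 947 and 148 of 1226 other cells had any TPH1 UMI, so the change rests on few cells. Of 7 epithelial, 8 Notch pathway, 6 endocrine progenitor and 7 p53 response genes 0 passed in either direction in edgeR. EPCAM, whose plain CPM values were higher in every library, had a fitted change of -0.26 ± 0.24 (adjusted p = 0.659 in edgeR's quasi-likelihood test), so its sign depends on the scaling. Outside all lists the naming rule gave 257 higher and 122 lower genes. The 10 higher ones named by that rule, ASPM, GTSE1, CDC25C, PBK, TROAP, HJURP, CENPA, DLGAP5, NEK2 and CKAP2L, are mitotic genes, tied to the rule. Among the lower genes with the greatest change were HIST1H2BG (-3.11), RASD1 (-2.33), CREBRF (-2.28), CRH (-2.18), PPP1R3E (-2.15), RASA4 (-2.11), CCDC186 (-2.07), MBP (-1.99) and SLC2A1 (-1.98). Each of these 9 rested on 3 to 13 UMIs in cycling cells, of which CRH, a neuropeptide hormone gene, had the most (18.3, 51.5 and 21.2 CPM against 152, 120 and 162 CPM). Few cells stand behind these sums: 4 of the 10 cycling cells of replicate 2 had between 2587 and 4464 UMIs. The mitochondrial shares of these 4 ran from 0.333 to 2.89%, against the class median of 10.7% in that library.

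In neural or glial class cycling cells the genes of the neural list were detected as follows. FABP7 was at 3915, 7965 and 1876 CPM in the 14, 1 and 20 cycling cells and at 1854, 962 and 1347 CPM in the 13, 1 and 40 other cells. One cell of replicate 1, at 20137 CPM, held 67.3% of the FABP7 UMIs of that sum. SOX2 was at 539, 162 and 487 CPM against 389, 292 and 431 CPM, and TTYH1 at 881, 1890 and 1149 CPM against 962, 1662 and 1146 CPM. FABP7 was higher in cycling cells of 3 libraries, SOX2 of 2 and TTYH1 of 2. SOX9, a factor of glial and pancreatic progenitors, was at 98.3, 0 and 127 CPM against 56.6, 0 and 64.8 CPM. S100B was at 66.6 and 315 CPM in replicates 1 and 3 against 113 and 332 CPM, and SOX10, a factor of neural crest and its glia, was at 0 UMIs in cycling cells. These genes set the class, so no test is read from them.

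Replicate 2, with 1 cell on either side, could not enter a fit of neural-class cycling against other neural-class cells, which was planned to give values only in that case. A fit on replicates 1 and 3 was added after the counts had been seen and has 1 residual degree of freedom. Its cycling cells were deeper, with median UMIs of 21424 and 14216.5 against 11082 and 11695.5 in replicates 1 and 3. Fewer of them had just 3 neural markers, 0 of 14 and 2 of 20 against 5 of 13 and 11 of 40. This fit called 189 genes higher and 112 lower of 4755 (6.33%, 3.97% higher and 2.36% lower) in edgeR's quasi-likelihood test, while DESeq2's Wald test called 30 and 12. Calls of this fit are therefore given with their levels. Those of MCM7, CCND2, BTG1, CDKN1C, KRT18, GCG and TTR were lost in DESeq2 (adjusted p from 0.471 to 1) and without the replicate block (0.0876 to 0.437). G1/S genes are tied to the rule that chose the cells, so their calls are a description only. Of 15 tested G1/S genes 5 were higher, with MCM7, a helicase subunit, at 254 and 188 CPM in replicates 1 and 3 against 84.9 and 69.0 CPM. CCND1, cyclin D1, was at 669 and 247 CPM against 382 and 332 CPM and did not pass (0.11 ± 0.25). CCND2, cyclin D2, was at 60.2 and 16.2 CPM against 241 and 62.7 CPM (log2 change -2.03 ± 0.39). BTG1 was at 101 and 97.4 CPM against 297 and 199 CPM (-1.34 ± 0.29). CDKN1C was at 34.9 and 58.4 CPM against 212 and 62.7 CPM, so most of the distance was in replicate 1. Notch pathway genes, which keep neural progenitors undifferentiated, were present in both groups, and 0 of 8 passed in edgeR. Of 10 nucleotide synthesis genes 7 were higher, and of 9 histone and chromatin genes 8, lists that are likewise tied to the rule. HES4 was at 457 and 704 CPM in cycling and 552 and 473 CPM in other cells, and HES1 at 139 and 214 CPM against 113 and 201 CPM.

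Several lower genes of the neural class came from few non-cycling cells. CLDN5, a tight junction gene of endothelium, had 0 UMIs in cycling cells and stood at 467 and 157 CPM in other cells, in replicate 1 from 1 of 13 cells and in replicate 3 from 9 of 40. Taking 3 UMIs over the cycling cells as the floor, it was at least 47.3-fold lower. TYRP1 and MLANA, pigment cell genes, had 0 UMIs in cycling cells (at least 21.1- and 20.5-fold lower), and each had UMIs in 2 other cells of replicate 1 and 2 of replicate 3. GPNMB, another pigment cell gene, was at least 13.8-fold lower. A2M, a protease inhibitor, was at 0 and 9.74 CPM against 134 and 171 CPM (-4.93 ± 0.56), and it kept its call under the alternatives in which it was tested. IGFBP7 was at 3.17 and 45.4 CPM against 49.5 and 688 CPM (-3.98 ± 0.39). KRT18 was at 19.0 and 227 CPM against 389 and 627 CPM, and ACTA2, smooth muscle actin, at 22.2 and 172 CPM against 234 and 510 CPM. GCG was at 907 and 604 CPM against 1507 and 3770 CPM, and TTR at 602 and 425 CPM against 899 and 3824 CPM, with 1 cell of replicate 3 holding 71.5% of the GCG UMIs of the other cells. In collagen-rich barcodes GCG was at 823, 628 and 600.0 CPM in those with at least 3 cycling genes and at 896, 870 and 1232 CPM in the rest. The 907, 513 and 604 CPM of neural-class cycling cells lay near these levels, and the part of free RNA in them was not tested.

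**Figure D5:**
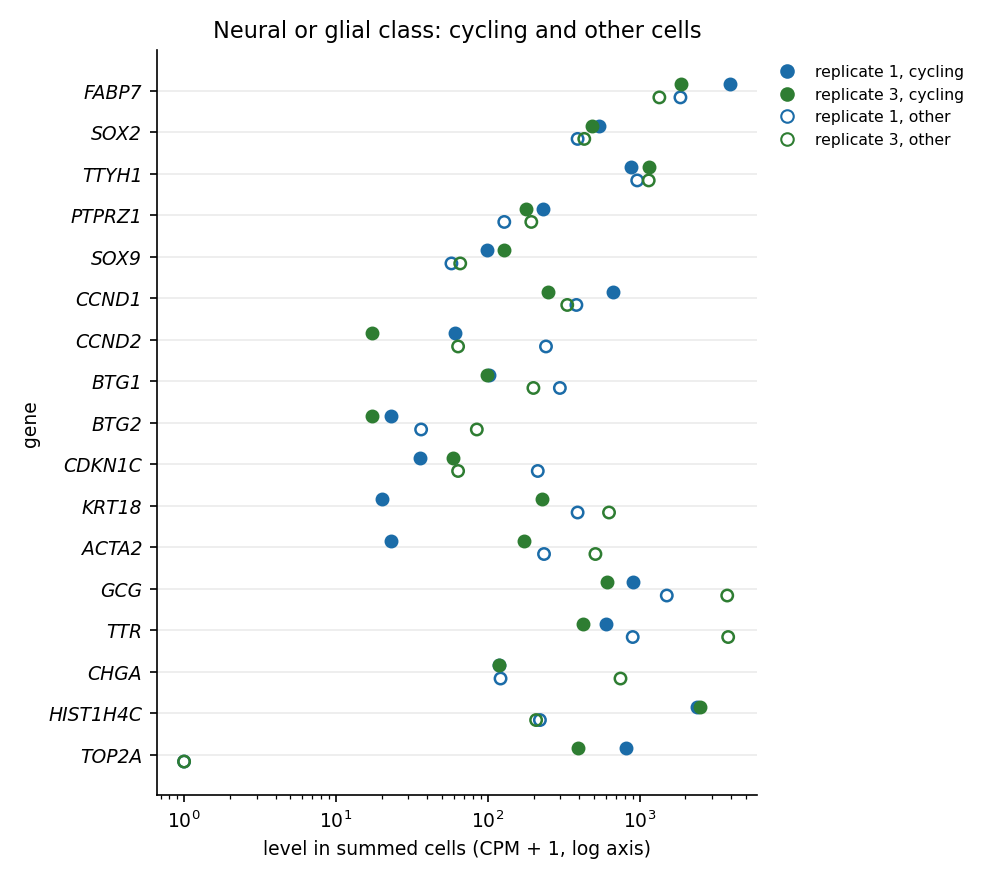
Levels of 17 genes (y) in the summed neural or glial class cells of replicates 1 and 3, as CPM + 1 on a log x axis; filled points are cycling cells and open points other cells. TTYH1 and PTPRZ1 overlap between the groups, SOX2 lies slightly higher in cycling cells, CCND2, BTG1, KRT18 and GCG lie lower in cycling cells of both replicates, and TOP2A is a gene of the rule.

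Few cycling cells carried epithelial genes with little endocrine RNA. Both pancreatic progenitor class cells came from replicate 2. They had EPCAM at 1174 and 1412 CPM, KRT19, a keratin of ducts and simple epithelia, at 1215 and 3176 CPM, and SOX2 at 283 and 321 CPM. HES1, a Notch effector, was at 2146 CPM in the first and 225 CPM in the second. NTS, the neurotensin gene, was at 405 and 3241 CPM, and TPH1 at 481 CPM in the second. GCG was at 810 and 866 CPM and CHGA at 40.5 and 32.1 CPM. Of the list that named the class the pair summed to PDX1 at 89.5 CPM, GATA4 at 71.6 CPM and GATA6 at 233 CPM, with SOX9 and NKX6-1 at 0. The 6 other cells of the class also had EPCAM, at 5067, 831 and 889 CPM by library, and SOX2 at 0. With SOX9 and NKX6-1 at 0 the pair is called by its rule only, and with 2 cells in 1 library no comparison was made.

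The 8 cells in no class were of several kinds. Of 3 in replicate 1, 1 had 10047 UMIs and FABP7 at 7465 CPM with 8 rule genes and GCG at 1194 CPM. Another had 3025 UMIs and GCG at 138843 CPM. The last, with 3058 UMIs, carried GCG at 80118 CPM and FABP7 at 6867 CPM together, and Scrublet did not call it. The cell of replicate 2 had GCG at 12091 CPM and INS at 9618 CPM. In replicate 3, 1 cell with 23452 UMIs had EPCAM at 1066 CPM, KRT8 at 895 CPM, HES1 at 853 CPM and SOX2 at 298 CPM, genes that the progenitor-class pair also carried, and 1 with 9464 UMIs had KRT19 at 1691 CPM and EPCAM at 0. The other 2 had 2760 and 2650 UMIs. Cells of low depth detect fewer markers, and 5 of the 8 had between 2650 and 3639 UMIs. The mitochondrial shares of these 5 were low, at 0.132, 0.589, 0.0550, 0.145 and 1.43%. The cell with 10047 UMIs had 0.0995%. Those with 23452 and 9464 UMIs had 9.36 and 9.57%. Why the shares were low was not tested.

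Among genes of earlier stages, the pluripotency genes and NEUROG3 had few or no UMIs in the cycling cells, while SOX4 and SOX11 were well detected. POU5F1 and TDGF1, pluripotency genes, and NEUROG3, the transient switch of endocrine progenitors, were at 0 UMIs in all 62 cells. A count of 0 in 386235, 310079 and 393560 UMIs allows up to 7.77, 9.67 and 7.62 CPM and limits the RNA captured, not the cells. LIN28A and DPPA4, of the same pluripotency list, had 3 and 2 UMIs in the 62 cycling cells, all in neural-class cells, beside 2 and 3 UMIs in the 3473 other cells. SALL4 had UMIs in 3 cycling cells, 1 each of the neural class, the progenitor class and no class, and stood at 7.77, 6.45 and 2.54 CPM against 5.27, 4.03 and 8.24 CPM. The 1 gene of that list that entered the all-cell fit did not pass. SOX4 and SOX11, factors that follow NEUROG3 in endocrine progenitors and are also abundant in neural progenitors, were at 404, 461 and 429 CPM and at 127, 51.6 and 102 CPM, against 122, 81.9 and 236 CPM and 8.96, 3.10 and 13.9 CPM in other cells. In endocrine-class cycling cells SOX11 was at 73.2, 14.0 and 21.2 CPM, and in neural-class ones at 143, 81.0 and 114 CPM. Of 6 tested endocrine progenitor genes 3 were higher and 0 lower in the all-cell fit, which called 13.5% of all genes higher.

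Cycling cells were also compared as a whole with all other cells under the collagen limit, 2 sets that differ in class makeup as described above. edgeR called 1937 genes higher and 1978 lower of 14361 (27.3%), so a called member is not unusual here. All 9 endocrine list genes were lower and 6 of 8 tested neural list genes higher, with ERBB3 lower. Of 14 granule genes 12 were lower and 0 higher, and of 12 alpha-cell genes 8 were lower and 1 higher. Of 9 Notch pathway genes 6 were higher, among them NOTCH3 at 57.0, 22.6 and 61.0 CPM against 0.824, 0.921 and 1.95 CPM (log2 change 4.90 ± 0.49) and HES4 at 404, 152 and 569 CPM against 14.5, 8.20 and 36.9 CPM (3.96 ± 0.28). Of 7 tested mesenchymal genes outside the rule 5 were higher, among them SPARC, a matrix protein gene that neural-class cycling cells carried at 365, 432 and 669 CPM. The defining fibroblast genes DCN and LUM were at 0, 0 and 86.4 CPM and at 31.1, 12.9 and 53.4 CPM in cycling cells, against 0.110, 0.145 and 2.89 CPM and 1.32, 1.65 and 8.02 CPM in other cells. LUM was thus higher in each library (3.01 ± 0.51), on 12, 4 and 21 UMIs in cycling cells, those of replicate 2 all from 1 cell. DCN was detected in cycling cells of replicate 3 only, with 88.2% of its UMIs there from 1 cell. CDKN2C was higher here too, at 20.7, 61.3 and 30.5 CPM, and BTG1 lower (-2.45 ± 0.29). For CDKN2C this is partly the same cells, since endocrine-class cells held 1, 18 and 3 of its 8, 19 and 12 cycling UMIs. Of 8 tested hepatic genes 7 were lower, of 10 neuronal genes 4 were higher and 3 lower, and of 9 G1 cyclins and kinases 7 were higher. The part of the class makeup in these differences was not tested. In the added endocrine fit, where both sides are of 1 class, 0 of 8 Notch genes passed, but a difference between the 2 fits was not tested.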

How the data were processed

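Single-cell RNA was measured in 3 libraries of 1 group. The authors deposited raw UMI counts per gene and barcode, made with Cell Ranger 4.0.0 on GRCh38 per the submitters' processing notes, for 33538 features. Barcodes were filtered, classed and summed per library and cell set as stated in the report. Nothing was corrected for free RNA. Sums were compared with edgeR 4.0.16 in R 4.3.3 (quasi-likelihood test, TMM, filterByExpr, library as block, Benjamini-Hochberg threshold 0.05), with DESeq2 1.42.0 as an alternative. Shares were compared with exact sign-flip permutation tests over 3 pairs (scipy 1.17.1). Doublets were scored with Scrublet in scanpy 1.11.5 and kept. Libraries held 30139788 to 31122791 UMIs. Intervals and zero limits (3 counts) cover counting error only.

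The members and lists were chosen with earlier results of these data known. The fits required 5 cells per sum. The endocrine class (4, 10 and 3 cells) and the neural class (14, 1 and 20) did not meet this, so fits with at least 3 cells per sum and on replicates 1 and 3 were added after the counts were seen. The progenitor class was not fitted. For genes that set the classes no log2 change of the added fits is given, a choice made after their values were seen. Some list members and named genes are not reported here. Named genes were the rule and class genes, the hormones, up to 4 per list by size of change, and up to 10 per direction outside the lists (at least 50 CPM, absolute log2 change of at least 1, 1 sign in all libraries). On simulated counts 94, 72 and 78% of genes raised 4-fold were recovered in the all-cell, endocrine and neural fits. Of genes lowered to 0.25 of their level 48, 44 and 24% were recovered. At 2-fold it was 16, 0 and 8%, and at 0.5 of the level 14, 12 and 6%. False calls were 7 of 93, 9 of 73 and 2 of 60 calls. In the endocrine fit the median estimated log2 was 0.65 at 2-fold and 1.66 at 4-fold. It was -1.46 at 0.5 and -2.48 at 0.25 of the level. All 4 estimates were lower than the log2 values put in. The simulation gave all sums the same dispersion, whatever their number of cells, and drew no single cells. In the data 1 cell held most of some cycling sums, so these rates may not hold for the data. Promoters came from RefSeq and gene positions from GENCODE on GRCh38.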

Additional observations from a re-analysis of the deposited data

Results flagged for a closer look

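Barcodes outside the chosen cells also carried the cycling genes. Of collagen-rich barcodes that passed the other limits, 28 had at least 3 of the 8 genes: 3 of 9, 3 of 11 and 22 of 98 in replicates 1, 2 and 3. Another 14 barcodes met the rule except for the mitochondrial limit (10, 0 and 4), and 15 except for the gene minimum (5, 3 and 7). None of these entered the main fits. The collagen-rich ones entered the alternative without the collagen limit, and their GCG level is given in the report, and barcodes of up to 30% mitochondrial UMIs entered the alternative with that limit.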

How the results depend on the processing

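The labels number the libraries alike, but both cell sets of a comparison come from the same library, so the replicate block pairs them by design. Without the replicate block the all-cell fit called 2244 genes higher and 2184 lower, the endocrine fit 479 and 269, and the neural fit 68 and 9. With single libraries left out, the all-cell counts ran from 1024 to 2291 higher and from 636 to 2470 lower, and the endocrine counts from 156 to 317 and from 102 to 159. Thinned to 5000 UMIs the all-cell fit gave 629 higher and 793 lower, DESeq2 gave 1190 lower, and cells picked on one part of their UMIs and measured on the remainder gave 1287 higher. In the endocrine fit DESeq2 gave 47 lower and the split UMIs 188 higher. The neural fit gave 30 higher and 12 lower in DESeq2, 62 and 29 thinned, 87 and 38 at up to 30% mitochondrial UMIs, 122 and 55 with at least 2000 genes, 107 and 42 with 4 class markers, and 64 and 29 with split UMIs. It gave 74 lower with at least 2 and 70 lower with at least 4 cycling genes. The percentage of cycling barcodes, 1.73 on average, was 2.18 with at least 2 genes, 1.38 with at least 4, 1.22 thinned, 1.40 at up to 30% mitochondrial UMIs, 2.36 without the collagen limit and 1.34 with split UMIs. It ran from 1.60 to 1.90 with 1 library left out. The cycling share of the neural class was 68.1% with at least 2 genes and 19.8% thinned. With 1 library left out it ran from 41.7 to 50.9% and that of the endocrine class from 0.307 to 0.707%. The neural part of the cycling cells ran from 36.9 to 70.4% and the endocrine part from 15.1 to 45.2%.

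Signs turned for few genes named. In the all-cell fit the log2 change of GATA6 was -0.17 in DESeq2 and -0.28 thinned, and it ran from -1.94 (without replicate 2) to 1.15 with 1 library left out. That of NKX6-1 ran from -0.36 (without replicate 3) to 0.96, and it was -0.14 with at least 4 genes, -0.039 thinned and -0.063 with split UMIs. NTS gave -2.53 in DESeq2 and from -4.71 (without replicate 2) to 2.33 (without replicate 1) with 1 library left out. In the endocrine fit NTS ran from -10.81 (without replicate 2) to 0.40 (without replicate 1). In the neural fit CHGA was 0.28 and HES1 -0.36 when thinned, and CCND1 was -0.12 with at least 4 cycling genes, -0.062 with 4 class markers and -0.38 with split UMIs. Reported genes that set the classes turned sign in 7 values over 5 genes in the endocrine fit and in 6 values over 5 genes in the neural fit. The causes were not tested. Over the reported named genes and their alternatives, 102 values lost their call in the endocrine fit against 919 that kept their side of the threshold, and 109 against 523 in the neural fit. The 919 and 523 include genes that were not called in the main fit, so they are not counts of kept calls. Genes without a value in an alternative are in neither count. The endocrine fit thinned to 5000 UMIs, and an all-cell fit without endocrine-class cells that was tried after the data were seen, could not be fitted because too few cells were left.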
